A study of Mus musculus with 48 samples.

Results

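The nuclear genes for the subunits of oxidative phosphorylation (OXPHOS) were followed through gonadal somatic cells (GSCs) of 4 stages and through GSC-like cells (GSCLCs) induced from mouse embryonic stem cells (ESCs). The subunits were taken by gene symbol, as Nduf with a letter a, b, c, s or v and a digit (complex I), Sdha to Sdhd (complex II), Uqcr (complex III), Cox4 to Cox8 (complex IV) and Atp5 (complex V). The rule found 83 of the 22173 genes in the count table of the stages, with 37 in complex I, 4 in complex II, 8 in complex III, 18 in complex IV and 16 in complex V. Of these, 80 were among the 13682 genes with FPKM values (fragments per kilobase of transcript, scaled to depth) in the GSCLC experiments, and Cox7b2, Cox8b and Cox8c were not in that table.

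All libraries were bulk RNA-seq and carry the strain C57BL/6 in their labels. The first experiment held GSCs of female gonads at E12.5, E13.5 and E16.5 and somatic cells of the ovary 6 weeks after birth (P6w), with 2 libraries per stage. The second held E12.5_GC, separated from E12.5 female gonads, and GSCLCs after 4, 6, 8 and 10 days of V580 (V580_D4 to V580_D10), with 3 libraries per group. The third held ESC-derived cells at 24 h and 48 h under control conditions (Con), with vitamin C (Vc), with AM580, an agonist of the retinoic acid receptor alpha, or with both (V580), with 2 libraries per group. By the methods of the study, E12.5 GSCs were the cells that ran through a magnetic column which retained the SSEA1-positive germ cells, so that every other cell of the gonad could be among them. The ESCs were female lines made in the laboratory of the study, some with a β-actin-driven green fluorescent protein. Which line, how many clones or how many pooled animals stood behind a library was not given in the sources used here. Nothing in the labels said that libraries of a group came from separate animals or cultures, so that p values measure only the spread between these libraries, which may be technical.

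OXPHOS runs in the inner mitochondrial membrane. Complex I takes electrons from NADH and complex II takes them from succinate, complex III passes them to cytochrome c, and complex IV hands them to oxygen, while complex V makes ATP from the proton gradient. Most subunits are encoded in the nucleus, made in the cytoplasm and imported, a smaller number are encoded in mitochondrial DNA, and several complex IV subunits have alternative isoforms that differ between tissues. Steroid-making cells of the ovary depend on mitochondria for the first step of steroid synthesis, whereas pluripotent cells rely to a large part on glycolysis.

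Promoters are shown for 1 subunit of each complex, picked from those that hold the NRF1 letters given below. Promoters of this gene group are known for sites of NRF1 and of ETS factors such as GABP. A part of these letters in any change of the subunits was not tested. RefSeq (GRCm38.p6) gave a window from 250 bases before to 50 bases after the start of transcription for 68 of the 83 subunits. The letters GCGCATGC (NRF1 core), searched on both strands, stood in the windows of 10 subunits (14.7%), against 3.05% of all 27025 genes with a window and 5.35% of those tested in the stage libraries. The letters CCGGAAG (ETS core) stood in 16 subunits (23.5%), against 9.93% and 17.4%, and AAGATGGC (YY1 core) in 10 subunits (14.7%), against 3.19% and 4.56%. The letters TCAAGGTCA (ERR site) stood in 2 subunits (2.94%), against 0.466% and 0.337%. The NRF1 letters and their reverse complement overlap in the run GCGCATGCGC, the ETS and YY1 letters can share their AAG, and a match describes letters, not a bound site. The windows lie at chr15:82354242-82354541 on the minus strand (Ndufa6), chr4:140961021-140961320 on the plus strand (Sdhb), chr10:80406772-80407071 on the minus strand (Uqcr11), chr5:115348909-115349208 on the minus strand (Cox6a1) and chr5:108434350-108434649 on the minus strand (Atp5k). Each is written 5′ to 3′ on the strand of its gene, with the NRF1 or ETS letters, read on either strand, in capitals.
Ndufa6: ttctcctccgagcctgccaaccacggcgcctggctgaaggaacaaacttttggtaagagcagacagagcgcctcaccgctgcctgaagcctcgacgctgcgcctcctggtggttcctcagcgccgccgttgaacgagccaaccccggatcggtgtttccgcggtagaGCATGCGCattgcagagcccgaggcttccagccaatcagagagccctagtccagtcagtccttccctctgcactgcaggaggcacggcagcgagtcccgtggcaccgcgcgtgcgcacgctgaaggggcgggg
Sdhb: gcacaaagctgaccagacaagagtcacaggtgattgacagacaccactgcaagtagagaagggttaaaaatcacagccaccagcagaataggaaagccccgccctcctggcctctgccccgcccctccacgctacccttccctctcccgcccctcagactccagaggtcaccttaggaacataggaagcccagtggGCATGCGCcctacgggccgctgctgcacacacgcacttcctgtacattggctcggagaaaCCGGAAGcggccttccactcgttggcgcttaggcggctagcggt
Uqcr11: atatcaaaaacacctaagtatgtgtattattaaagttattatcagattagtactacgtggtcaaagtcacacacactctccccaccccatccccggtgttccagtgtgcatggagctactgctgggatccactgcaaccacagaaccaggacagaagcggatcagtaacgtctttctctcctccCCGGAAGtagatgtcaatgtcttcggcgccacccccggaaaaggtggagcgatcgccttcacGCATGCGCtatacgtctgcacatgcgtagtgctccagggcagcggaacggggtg
Cox6a1: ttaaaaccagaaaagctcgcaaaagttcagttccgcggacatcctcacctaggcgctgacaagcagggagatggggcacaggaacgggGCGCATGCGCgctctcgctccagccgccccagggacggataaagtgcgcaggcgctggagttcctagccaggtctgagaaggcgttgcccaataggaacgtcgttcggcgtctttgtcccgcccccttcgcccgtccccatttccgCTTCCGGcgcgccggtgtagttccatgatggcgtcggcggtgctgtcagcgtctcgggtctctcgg
Atp5k: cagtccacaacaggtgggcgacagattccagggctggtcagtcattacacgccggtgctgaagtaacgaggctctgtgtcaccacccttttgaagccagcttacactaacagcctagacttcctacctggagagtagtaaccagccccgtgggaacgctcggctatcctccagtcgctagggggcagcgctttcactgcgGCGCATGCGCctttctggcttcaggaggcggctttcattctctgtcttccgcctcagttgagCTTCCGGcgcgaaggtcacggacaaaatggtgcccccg
These 5 windows were picked for the NRF1 letters, so they are not typical of the 68, of which 10 held them. Those of Sdhb, Uqcr11, Cox6a1 and Atp5k also held the ETS letters.

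The stage libraries held between 12694769 and 22259044 counts, and the FPKM libraries between 15881736 and 23462748 fragments, as worked out from the steps of the FPKM values. Several libraries stood apart in markers fixed by symbol. Summed CPM (counts scaled to the library total) of 4 Y-linked genes was 8.40 and 9.50 in the E12.5 libraries, which are labelled female, and at most 0.254 in the other stages. The erythroid genes (9 of 9 in the table) summed to 32453 to 35094 CPM in E13.5 libraries, 14334 to 15730 in E12.5 libraries, 10619 to 15156 in E16.5 libraries and 264 to 294 in P6w libraries. For 6 liver genes the sum was 175 to 181 at E13.5, 123 to 134 at P6w and at most 4.89 at E12.5 and E16.5. The P6w sum was nearly all Apoa1 (122 and 133 CPM), with every other liver gene at most at 0.666 CPM. At E13.5 each of the 6 liver genes had at least 9.35 CPM. For 6 germ cell genes the sum was 122 to 156 at E16.5 and at most 26.4 elsewhere. The 8 gonadal somatic markers summed to 2308 to 2311 CPM in the E12.5 libraries, 2277 to 2348 at E13.5, 1532 to 1660 at E16.5 and 1070 to 1169 at P6w, and 6 adult granulosa markers to 37127 to 37160 at P6w against at most 259 before. Within the gonadal sum, genes moved in opposite directions from E12.5 to E13.5. Wt1 went from 532 and 537 to 191 and 192 CPM, and Lhx9 from 312 and 305 to 175 and 176. Amhr2 went from 681 and 691 to 1152 and 1101 CPM, and Foxl2 from 5.79 and 6.62 to 14.3 and 13.2. The other lists in the stages ranged from 64.3 to 327 CPM (6 pluripotency markers) and from 3.68 to 51.8 CPM (6 muscle markers), lowest at P6w in both. The pluripotency sum was nearly all Klf4, with 63.1 to 323 CPM, and each other marker of that list had at most 17.2 CPM (Pou5f1 at E13.5). The part of these cells in the results was not tested, and in bulk RNA fewer cells of a type cannot be told apart from less RNA per cell.

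Stage changes were tested with edgeR (quasi-likelihood F test on counts) in a model of all 8 libraries and 16398 genes, and a gene was called at a Benjamini-Hochberg adjusted p below 0.05. Of the 83 subunits, 79 passed the filter on low counts. Cox6a2, Cox7b2, Cox8b and Cox8c did not and lay at or below 0.55 CPM in every stage library. Cox6a2 is an isoform known from heart and muscle. The 5 comparisons of stages share libraries, and their values are therefore given side by side.

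Nearly all subunits rose from E12.5 to E13.5. Of 79 subunits, 74 were called higher and 0 lower, against 23.8% of all genes tested called higher and 22.1% lower. DESeq2 gave the same counts of 74 and 0, and at an unadjusted p below 0.05 edgeR had 75 higher and 1 lower. The median log2 fold change of the subunits was 0.96, and the rise ran through every complex, with 35 of 37 subunits higher in complex I, 3 of 4 in complex II, 8 of 8 in complex III, 13 of 14 in complex IV and 15 of 16 in complex V. The complex medians were 1.02, 0.81, 0.79, 1.03 and 0.87 on the log2 scale in that order. All subunits together took 1.58% and 1.52% of the counts in the E12.5 libraries and 2.21% and 2.23% in the E13.5 libraries in the raw tables. The largest called rises were those of Ndufb4 (log2 fold change 1.36 ± 0.12 (SE)), Cox7a1 (1.35 ± 0.23) and Ndufa3 (1.32 ± 0.13). Of the 18 subunits followed in every comparison, 15 were called higher.

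From E13.5 to E16.5 the subunits fell together. Of 79 subunits, 71 were called lower and 2 higher, against 25.4% of all genes lower and 28.7% higher, with a median log2 fold change of -0.92. Complex V was lower in 16 of 16 subunits, complex I in 34 of 37, complex IV in 12 of 14, complex III in 6 of 8 and complex II in 3 of 4. The deepest falls were those of Atp5e (-1.49 ± 0.15), the epsilon subunit in the stalk of the ATP synthase, Uqcr11 (-1.39 ± 0.13) and Atp5d (-1.36 ± 0.12). The 2 called higher were Uqcrfs1 and Ndufa4l2. Of the 18 followed subunits, 12 were lower and 1 higher.

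The balance of subunits between E16.5 and E12.5 depended on the processing. Between E16.5 and E12.5, 16 subunits were called higher and 6 lower, against 20.5% of all genes higher and 17.1% lower, and the median log2 fold change was -0.03. The called falls held the catalytic core of complex V, with Atp5b at -0.57 ± 0.11, Atp5c1 at -0.39 ± 0.11 and Atp5a1 at -0.30 ± 0.11. This count depended on single libraries, since it was 5 higher and 1 lower without the first E12.5 library, 4 and 2 without the second, and 12 higher and 14 lower without the second E16.5 library. With the length term described below it was 4 higher and 40 lower with a median of -0.28, where 17.6% of all genes were higher and 25.8% lower, with a term for GC content 11 and 14, and with a term for the sequencing lane 12 and 13.

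At P6w subunits were called in both directions. Against E12.5, 24 subunits were called higher and 12 lower, where 25.4% of all genes were higher and 27.5% lower. Without the first E12.5 library the counts were 15 and 6, and without the second 10 and 8. With a term for the sequencing lane, 22 were called in either direction against E12.5. The E12.5 libraries shared a lane and the P6w libraries another, so that only the E16.5 libraries link the lanes. Against E16.5, 24 were called higher and 21 lower, where 26.3% of all genes were higher and 29.8% lower. In that comparison complex V had 7 of 16 subunits higher and 2 lower, and complex II had 2 of 4 higher and 0 lower, whereas complex IV had 1 of 14 higher and 9 lower. The complex medians were 0.17 (I), 0.32 (II), -0.02 (III), -0.33 (IV) and 0.18 (V) on the log2 scale. The balance of this comparison turned to 22 higher and 24 lower without the first E16.5 library and to 17 and 19 without the second P6w library, and with a term for the sequencing lane it was 22 and 23. With the length term it was 42 higher and 6 lower, where 35.8% of all genes were higher and 24.4% lower, and complex IV then had 5 higher and 3 lower. The difference between complexes was not tested.

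**Figure D1:**
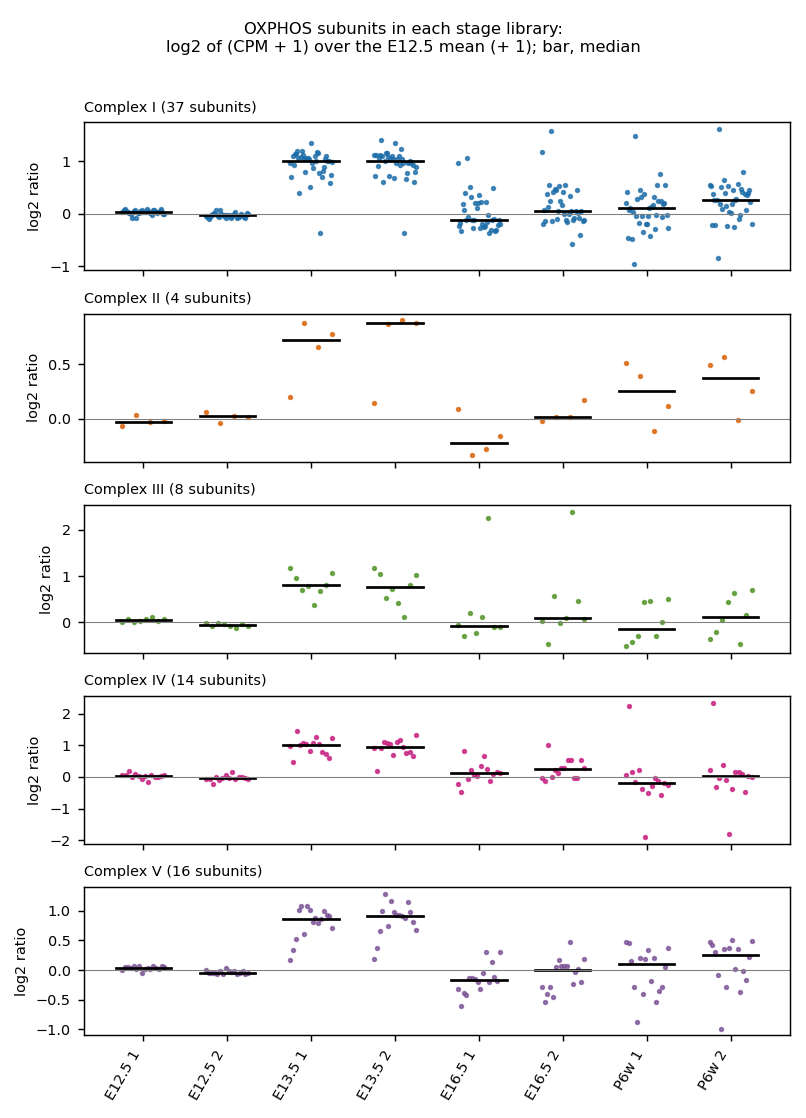
Each point is 1 subunit in 1 stage library, as the log2 of its CPM plus 1 over the mean E12.5 value plus 1, in a panel for each of the 5 complexes, and bars are medians. In every panel the E13.5 libraries stand above the E12.5 and E16.5 libraries, and the point far above the others of complex III at E16.5 is Uqcrfs1.

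The subunits are short genes, and changes at E13.5 ran with length over the whole transcriptome. The median transcript length was 763 bases for the subunits and 2393 bases for all 21823 genes with a length, and 54 of 83 subunits were under 1000 bases. By complex the median length was 870.5 bases (I), 2066 (II), 755 (III), 612 (IV) and 896.5 (V). Across 16169 tested genes, which are not independent replicates, Spearman correlations between transcript length and log2 fold change were -0.53 for E13.5 against E12.5 and 0.38 for E16.5 against E13.5. It lay between -0.0857 and -0.0334 in the other 3 comparisons of stages.

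Within bins of length the subunits were set beside genes of the same length. Among genes of 500 to 750 bases, the 30 subunits had a median log2 fold change of 1.03 and all 528 genes one of 0.87, and 29 of the 30 were called higher against 58.1% of the bin. In the bin of 750 to 1000 bases the medians were 1.02 for 14 subunits and 0.85 for 718 genes. The gap was wider among longer genes, with 0.71 for 10 subunits and 0.41 for 2007 genes of 1500 to 2000 bases, and 0.44 for 6 subunits and 0.08 for 3676 genes of 2000 to 3000 bases. Genes of at least 5000 bases, with no subunit among them, had a median of -0.69.

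Other lists of short genes rose beside the subunits. At E13.5 against E12.5, 74 of 78 mitochondrial ribosomal protein genes and 82 of 84 cytoplasmic ribosomal protein genes were called higher and 0 lower, with medians of 0.84 and 0.94, and from E13.5 to E16.5 72 and 79 of them were called lower and 2 higher in each list. At P6w against E16.5 these lists parted, with 36 higher and 5 lower among the mitochondrial and 2 higher and 57 lower among the cytoplasmic ribosomal proteins. Over all genes, 23.8% were higher and 22.1% lower at E13.5 against E12.5, 28.7% and 25.4% at E16.5 against E13.5, and 26.3% and 29.8% at P6w against E16.5.

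With a smooth term for transcript length in each library, the direction of both changes stayed and the counts were smaller. For E13.5 against E12.5, 37 subunits were called higher and 0 lower, with a median of 0.30, where 15.8% of all genes were higher and 13.8% lower. By complex, 23 of 37 were higher in complex I, 1 of 4 in complex II, 3 of 8 in complex III, 6 of 14 in complex IV and 4 of 16 in complex V. For E16.5 against E13.5, 60 subunits were called lower and 3 higher, with a median of -0.57, where 28.9% of all genes were lower and 19.9% higher. The median of all genes under this term was -0.11 in that comparison. The correlation of the change with length over all genes was -0.0588 and 0.0633 after the term. The mitochondrial and cytoplasmic ribosomal proteins then had 42 and 35 genes called higher at E13.5 and 0 lower.

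The later comparisons moved more under the length term. For E16.5 against E12.5, 4 subunits were called higher and 40 lower with a median of -0.28, where 17.6% of all genes were higher, 25.8% lower and the median of all genes was -0.13. For P6w against E12.5, 31 were called higher and 9 lower with a median of 0.17, where 28.3% of all genes were higher and 24.9% lower. For P6w against E16.5, 42 were called higher and 6 lower with a median of 0.36, where 35.8% of all genes were higher, 24.4% lower and the median of all genes was 0.17. The fall of complex IV as a group was then no longer seen, with 5 subunits higher and 3 lower.

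**Figure D2:**
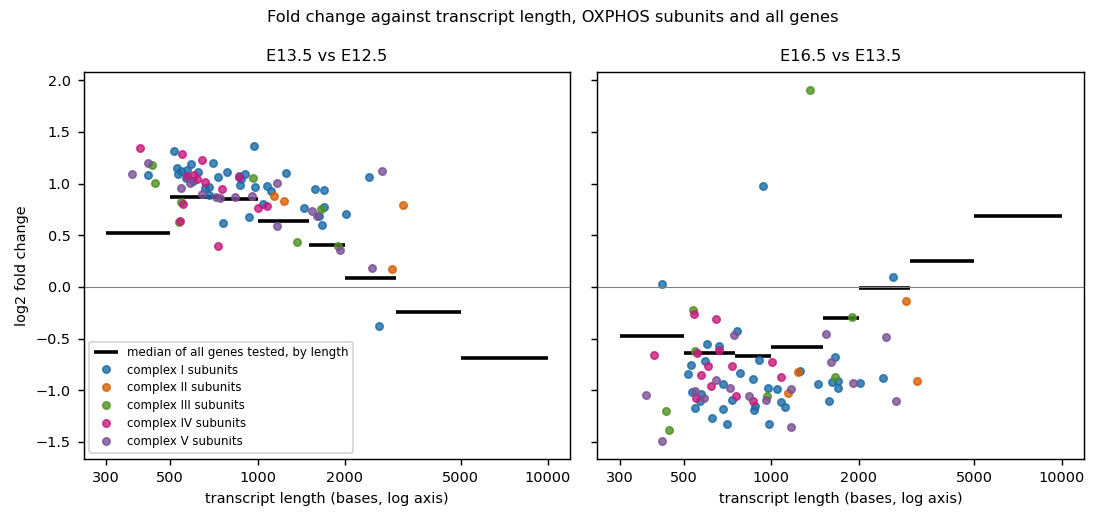
The log2 fold change of each subunit is plotted against its transcript length on a log axis, for E13.5 against E12.5 (left) and E16.5 against E13.5 (right), and black lines are the medians of all genes tested in 8 bins of length, drawn as steps over each bin. At E13.5 the subunits from 500 to 750 bases, with a median of 1.03, lay above the black line of their bin at 0.87, and at E16.5 the right panel mirrors this below 0.

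Complex I holds the entry point for electrons from NADH. Ndufs1, which carries iron-sulfur clusters of the peripheral arm and is among the longest subunits (2625.5 bases), had 67.4 and 60.7 CPM at E12.5, 49.3 and 49.3 at E13.5, then 62.7 and 42.4 at E16.5 and 62.9 and 63.0 at P6w. It was the subunit with a negative estimate at E13.5, and its log2 fold change of -0.38 ± 0.16 was not called (edgeR, adjusted p = 0.068). Ndufb9, a short accessory subunit of the membrane arm, had 204 and 196 CPM at E12.5, 451 and 468 at E13.5, then 169 and 199 at E16.5. Its rise of 1.20 ± 0.12 and its fall of -1.32 ± 0.12 were both called. Ndufv1, the subunit that binds FMN, had 197 and 189 CPM at E12.5, 291 and 292 at E13.5, then 166 and 199 at E16.5 and 281 and 265 at P6w, so that P6w lay near E13.5 (0.50 ± 0.12 above E12.5, adjusted p = 0.0024).

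Ndufa1 and Ndufs4 kept to other patterns. Ndufa1, an X-linked subunit needed for assembly, had 19.97 and 18.8 CPM at E12.5, 39.0 and 43.3 at E13.5, then 38.7 and 45.3 at E16.5 and 22.5 and 28.9 at P6w. It stayed high at E16.5, with a log2 fold change of 1.11 ± 0.16 over E12.5 (adjusted p = 9.2e-05) and of 0.03 over E13.5. Ndufs4, known from mouse models of Leigh syndrome, had 113 and 108 CPM at E12.5, 206 and 217 at E13.5, then 101 and 114 at E16.5 and 188 and 192 at P6w, where it was called 0.79 ± 0.11 above E12.5 and 0.82 ± 0.12 above E16.5.

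The 4 subunits of complex II, succinate dehydrogenase, also serve the tricarboxylic acid cycle. Sdha, the flavoprotein that oxidizes succinate, had 208 and 226 CPM at E12.5, 250 and 241 at E13.5, then 231 and 214 at E16.5 and 310 and 306 at P6w. Its estimates before birth were small and not called, and its rise at P6w over E12.5 was called (0.50 ± 0.11, adjusted p = 0.0013). Sdhb, the iron-sulfur subunit, had 256 and 244 CPM at E12.5, 461 and 459 at E13.5, then 199 and 253 at E16.5 and 329 and 372 at P6w. Sdhc and Sdhd, which anchor the complex in the membrane, were called higher at E13.5 (0.79 ± 0.13 and 0.84 ± 0.13) and lower at E16.5 against E13.5 (-0.91 ± 0.13 and -0.82 ± 0.13), and neither was called at P6w against E12.5 or against E16.5.

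In complex III, Uqcrfs1 moved against its partners. Uqcrfs1 encodes the Rieske iron-sulfur protein, which passes electrons on to cytochrome c1. Its gene lies at chr13:30540308-30545362 on the minus strand (GRCm38, GENCODE vM21). It had 52.2 and 44.1 CPM at E12.5, 77.9 and 52.3 at E13.5, then 233 and 258 at E16.5 and 39.1 and 34.5 at P6w. Both E16.5 libraries stood far above all others. The log2 fold change was 2.35 ± 0.17 for E16.5 against E12.5 (adjusted p = 9.2e-08), 1.91 ± 0.17 against E13.5 and -2.73 ± 0.18 for P6w against E16.5, and with the length term these were 2.09, 2.16 and -2.50. No annotated transcript of another gene matched its transcript at 97% identity over 150 bases. None of its partners in the complex came near this size. Uqcrb was called higher at E16.5 than at E12.5 (0.40 ± 0.15) and Uqcr11 lower (-0.38 ± 0.12). Uqcrc1, a core subunit, had 710 and 686 CPM at E12.5, 1212 and 1148 at E13.5, then 599 and 687 at E16.5 and 954 and 949 at P6w, and its log2 fold change between E16.5 and E12.5 was -0.12. For Uqcrq that value was -0.01.

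In complex V, the catalytic subunits had a smaller rise at E13.5 than the short ones. Atp5b, the catalytic beta subunit, had 1037 and 969 CPM at E12.5, 1275 and 1300 at E13.5, then 662 and 690 at E16.5 and 1369 and 1351 at P6w. It was lowest at E16.5, with no overlap with any other stage, and was called 1.01 ± 0.11 higher at P6w than at E16.5 (adjusted p = 1.8e-06). Atp5a1, the alpha subunit, was not called at E13.5 (0.18 ± 0.11) and was called 0.78 ± 0.11 higher at P6w than at E16.5. Atp5e and Atp5k, which are short, rose by 1.20 ± 0.15 and 1.10 ± 0.15 at E13.5. Atp5e was the member of complex V that fell most at P6w against E12.5 (-0.97 ± 0.15). Of the 3 genes for the c ring, Atp5g3 had the highest level per kilobase, with means of 655, 1197, 608 and 879 CPM per kilobase over the 4 stages, against 128, 279, 130 and 101 for Atp5g1 and 150, 302, 143 and 183 for Atp5g2.

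Cox4i2, an alternative isoform of complex IV, was called higher at P6w than at E12.5, and its common form was not called. Cox4i1, the common form of subunit 4, had 435 and 405 CPM at E12.5, 822 and 794 at E13.5, then 363 and 415 at E16.5 and 438 and 494 at P6w, and was not called between P6w and E12.5 (0.15 ± 0.12). Cox4i2, the form known from lung and from low oxygen, had 6.44 and 5.78 CPM at E12.5, 8.89 and 7.13 at E13.5, then 4.07 and 5.45 at E16.5 and 32.5 and 35.3 at P6w. Its rise at P6w was 2.47 ± 0.21 over E12.5 (adjusted p = 1.2e-07) and 2.84 ± 0.22 over E16.5. Per kilobase, Cox4i2 reached a mean of 46.4 CPM at P6w and stayed well under Cox4i1 at 617.

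Cox6b2 was lower at P6w. Cox6b2, a form of subunit 6b known from testis, had 15.5 and 17.2 CPM at E12.5, 29.8 and 27.4 at E13.5, then 16.6 and 20.2 at E16.5 and 3.59 and 3.91 at P6w. It was called lower at P6w than at E12.5, with a log2 fold change of -2.12 ± 0.21 (adjusted p = 5.5e-07), while its common form Cox6b1 moved from 198 and 188 CPM to 148 and 179 CPM without a call. Cox7a1, known from heart and muscle, had 5.37 and 6.87 CPM at E12.5, 16.3 and 14.9 at E13.5, then 10.4 and 9.24 at E16.5 and 4.82 and 6.91 at P6w, and Cox7a2 had 119 and 109, 236 and 224, 135 and 167, and 112 and 127. Neither Cox7a1 nor Cox7a2 was called between P6w and E12.5. Cox5a, which binds a thyroid hormone metabolite, was called higher at E16.5 than at E12.5 (0.92 ± 0.19) and lower at P6w than at E16.5 (-0.99 ± 0.19).

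Ndufa4 and Ndufa4l2 were called in opposite directions at P6w against E12.5. Ndufa4 carries a complex I name and is now assigned to complex IV, and Ndufa4l2 is a related gene known as a target of hypoxia-inducible factor. In the counts by complex given here both stand under complex I, by their symbols. Ndufa4 had 228 and 229 CPM at E12.5, 481 and 493 at E13.5, then 209 and 272 at E16.5 and 117 and 127 at P6w, a fall at P6w of -0.90 ± 0.13 against E12.5 (adjusted p = 3.3e-05). Ndufa4l2 had 2.18 and 2.52 CPM at E12.5, 3.40 and 4.11 at E13.5, then 5.97 and 8.94 at E16.5 and 8.33 and 9.24 at P6w. It was called higher at E16.5 (1.66 ± 0.29) and at P6w (1.90 ± 0.29) than at E12.5, at a level per kilobase at P6w of 9.41 CPM against 230 for Ndufa4.

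**Figure D3:**
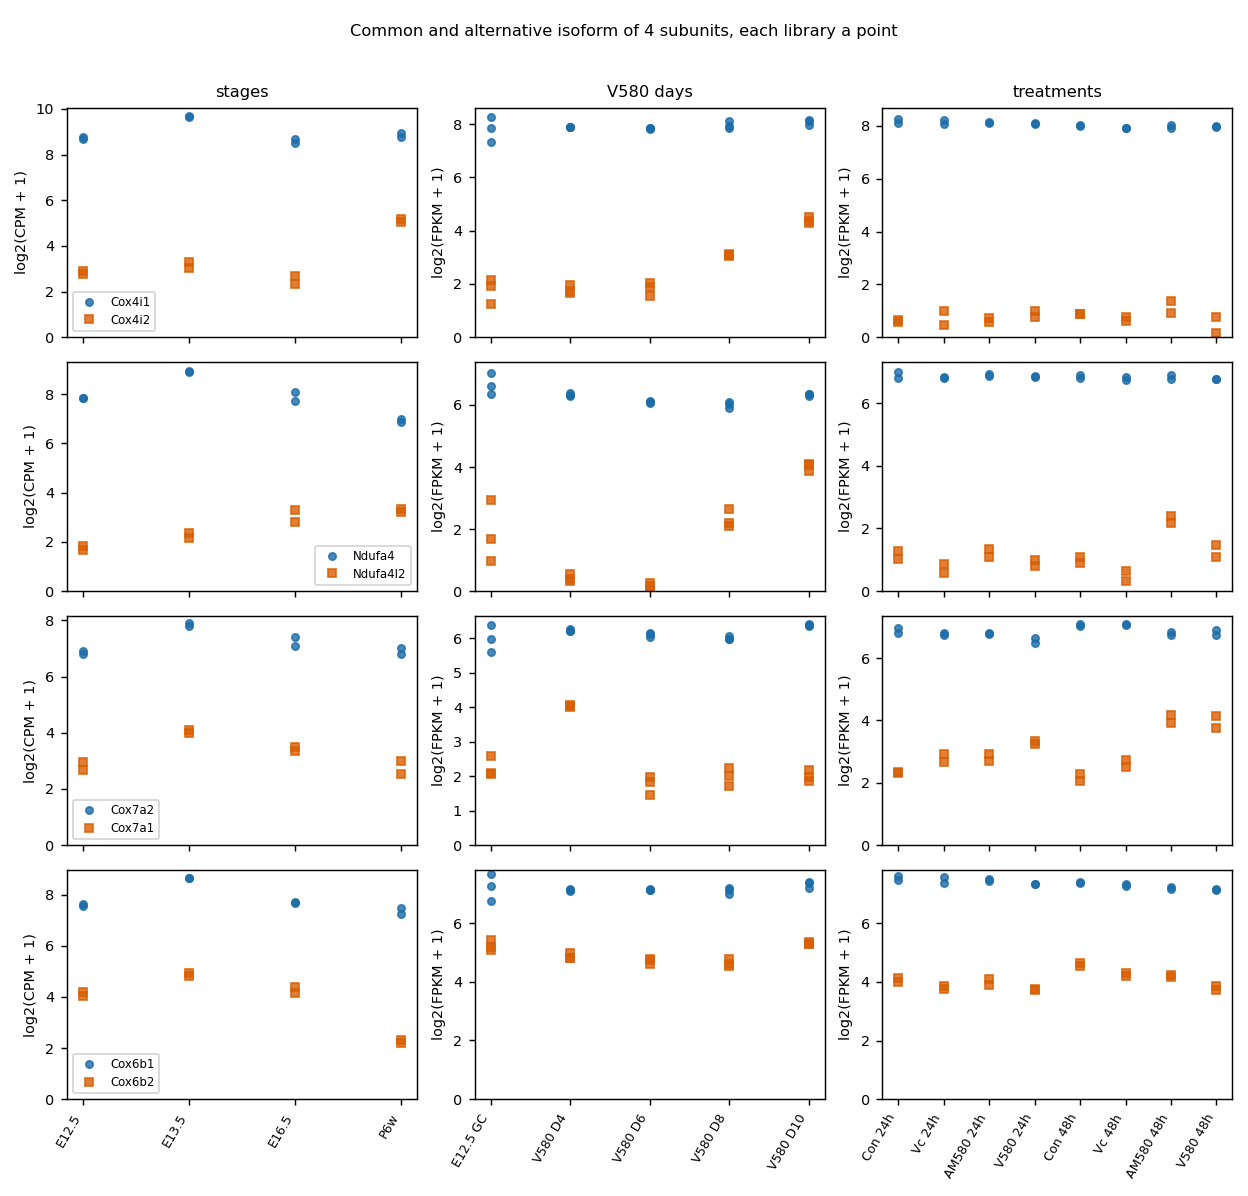
Each point is 1 library, with the log2 of CPM plus 1 (stages) or FPKM plus 1 (V580 days and treatments) for 4 pairs of a common form (circles) and an alternative form (squares). Squares of Cox4i2 stood highest at P6w among the stages, those of Cox4i2 and Ndufa4l2 at V580_D10 among the days, those of Cox7a1 at V580_D4 among the days and with AM580 and V580 at 48 h among the treatments, and those of Cox6b2 were lowest at P6w.

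Other genes of the pathway were counted from lists chosen by function. For E13.5 against E12.5, 31 of 45 assembly factors were called higher and 2 lower, 9 of 12 genes of cytochrome c and the carriers were higher and 0 lower, 6 of 14 enzymes of the tricarboxylic acid cycle were higher and 0 lower, and 6 of 20 genes of glycolysis were higher and 0 lower. Over all genes 23.8% were called higher and 22.1% lower in this comparison. The regulators of mitochondrial biogenesis had 1 of 15 higher and 7 lower with a median of -0.41, and the pyruvate dehydrogenase group 1 of 10 higher and 2 lower. At P6w against E16.5 the tricarboxylic acid cycle had 11 of 14 higher and 1 lower, with a median of 0.49, against 26.3% of all genes higher and 29.8% lower. None of the 13 subunits encoded in mitochondrial DNA was in either table, so that the nuclear and the mitochondrial genes for a complex were not compared here.

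In the V580 experiment limma-trend was run on log2(FPKM + 1), a scale on which changes of low genes are understated, over 11512 genes. Of the 80 subunits in the table, 78 passed the filter. Atp5o did not, with 0 FPKM in all 15 libraries, although it had 421 to 915 CPM in the stage libraries. The reason was not tested, and its FPKM values are not read as a low level. Before the results, the E12.5_GC libraries have to be described, because they differed from each other more than any V580 group. The summed FPKM of the subunits was 5522, 6893 and 4190 in the 3 E12.5_GC libraries, against 5141 to 5357 at V580_D4, 4661 to 4724 at V580_D6, 4506 to 5052 at V580_D8 and 5392 to 6057 at V580_D10. The Spearman correlation over genes of the deviation from the mean level with transcript length was -0.119, -0.380 and 0.189 in the E12.5_GC libraries, so that the library with the most subunit RNA also leaned most to short genes. The chi-square per degree of freedom between replicate fragment counts was 73.7 for E12.5_GC and 2.23 to 7.77 for the V580 days. Of 9 erythroid genes 3 were in the table, and they summed to 1038 to 4435 FPKM in E12.5_GC and to at most 0.739 in V580 cells. The 8 gonadal somatic markers summed to 593 to 711 FPKM in E12.5_GC and rose from 34.8 to 36.9 at V580_D4 to 194 to 208 at V580_D10.

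The V580 cells lay below or beside E12.5_GC in most subunits. At V580_D4, 10 subunits were called higher and 21 lower than in E12.5_GC, against 37.2% of all genes higher and 34.3% lower. At V580_D6, 0 were higher and 34 lower, against 35.0% and 32.0%, with a median log2 fold change of -0.25. The limma test had 0 higher at an unadjusted p below 0.05 as well, as did the count test on recovered fragments. At V580_D8, 1 was higher and 30 lower, against 32.6% and 30.5%, with a median of -0.23. At V580_D10, 11 were higher and 11 lower, against 36.3% and 33.2%, with a median of 0.01. Complex I had 18 of 37 subunits lower at V580_D6, complex V 7 of 15, complex III 3 of 8, complex IV 5 of 14 and complex II 1 of 4. At V580_D8 the same counts were 16, 8, 3, 2 and 1.

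These counts rested on single E12.5_GC libraries and on length. Shares of all genes are given for the length term only, not for the counts with a library left out. Without the second E12.5_GC library, 24 were higher and 10 lower at V580_D4 and 35 higher and 3 lower at V580_D10. Without the third, 5 were higher and 43 lower at V580_D4, 0 and 60 at V580_D6, 1 and 59 at V580_D8, and 5 and 32 at V580_D10. With a length term, 29 were higher and 20 lower at V580_D4 where 41.9% of all genes were higher and 34.9% lower, and 29 higher and 19 lower at V580_D6 where 38.0% and 33.1% were. With that term V580_D8 had 18 higher and 27 lower, where 33.5% of all genes were higher and 34.8% lower, and V580_D10 had 35 higher and 13 lower, where 35.9% and 38.9% were. Few genes tested here were as short as the subunits. Under 500 bases there were 49, with 6 subunits among them, and from 500 to 750 bases 228, with 30 subunits. In that range the term was fitted on few genes, in part the subunits themselves. At V580_D4 the larger count turned from lower to higher without the second E12.5_GC library and with the length term, and at V580_D6 it turned with the length term but not without that library (6 higher and 21 lower). At V580_D8 the lower subunits stayed the larger count in both, with 7 higher and 19 lower without that library. Leaving out the third V580_D8 library gave 1 higher and 19 lower at V580_D8, and leaving out the first V580_D10 library gave 6 higher and 8 lower at V580_D10.

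Between V580 days, where replicates were tighter, most subunits were not called. These steps were tested in the model that also held E12.5_GC, so that its wide spread entered their error as well. A subunit without a call is therefore not shown to be unchanged. From V580_D4 to V580_D6, 0 subunits were called higher and 11 lower, against 21.9% of all genes higher and 23.0% lower. At an unadjusted p below 0.05 limma had 0 higher and 13 lower, the count test had 0 and 11, and without the first V580_D4 or the first V580_D6 library 7 were called lower. From V580_D6 to V580_D8, 4 were higher and 1 lower, against 20.3% and 20.9%. This balance turned under the length term to 6 higher and 22 lower, against 21.5% and 28.5%, while the step to V580_D6 had 10 and 11, against 23.2% and 28.9%, and the step to V580_D10 had 28 and 2, against 21.6% and 22.5%. From V580_D8 to V580_D10, 19 were higher and 0 lower, against 19.5% and 15.0%, with a median of 0.26 and 10 of 37 higher in complex I, 5 of 14 in complex IV, 3 of 8 in complex III, 1 of 15 in complex V and 0 of 4 in complex II. At an unadjusted p below 0.05 limma had 32 higher and 1 lower, and the count test called 18 and 1. The count fell to 10 higher without the second V580_D8 library, to 8 without the third V580_D8 or the third V580_D10 library, and to 8 higher and 1 lower without the first V580_D10 library. The 18 followed subunits had 1 call in it, Uqcrq at 0.53 ± 0.16.

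**Figure D4:**
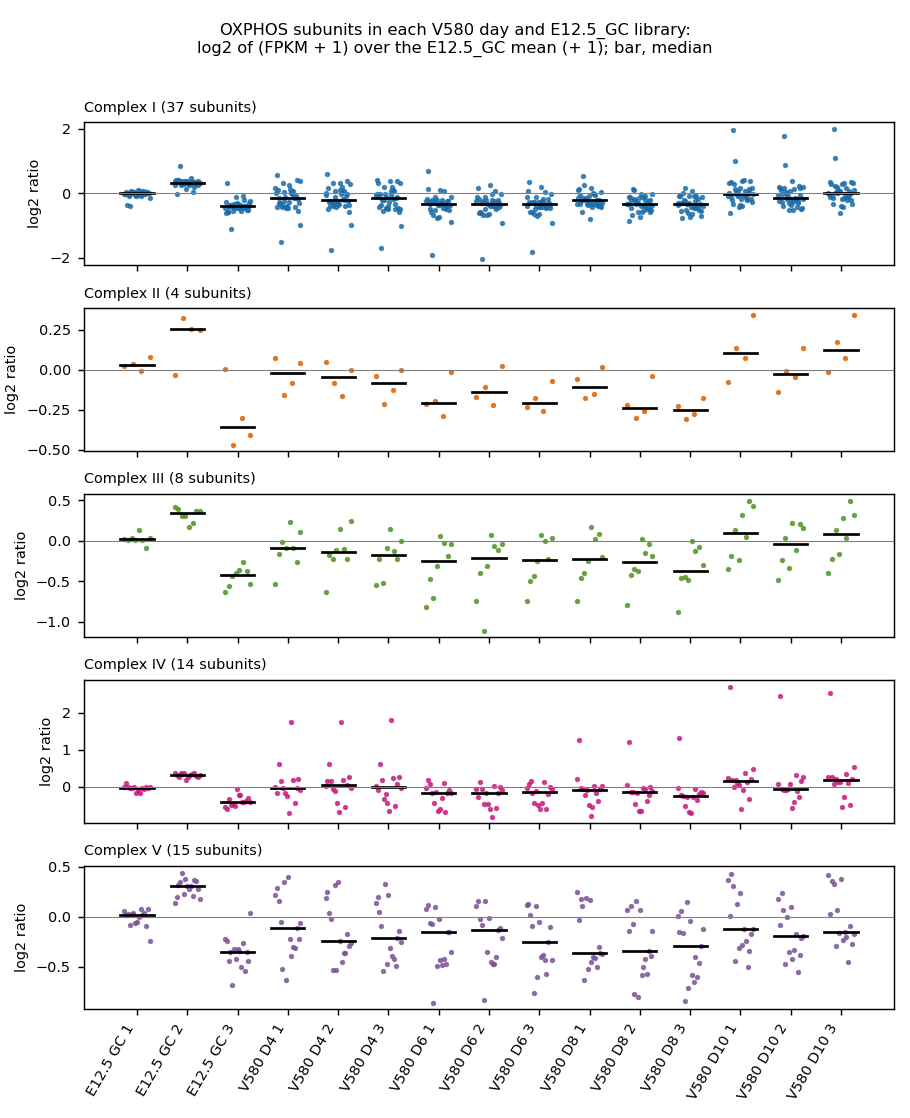
Each point is 1 subunit in 1 library of E12.5_GC or a V580 day, as the log2 of its FPKM plus 1 over the mean E12.5_GC value plus 1, in a panel for each complex, and bars are medians. The 3 E12.5_GC libraries, with summed subunit FPKM of 5522, 6893 and 4190, spread over a wider range than the libraries of any V580 day.

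A small group of subunits changed by more than the rest, and the alternative isoforms were among them. Cox4i2 had 2.79, 3.46 and 1.36 FPKM in E12.5_GC, 2.17, 2.92 and 2.33 at V580_D4, 3.06, 1.94 and 2.71 at V580_D6, 7.51, 7.26 and 7.78 at V580_D8 and 22.1, 18.5 and 19.6 at V580_D10. The V580_D8 and V580_D10 libraries lay above all others, with a log2 fold change over E12.5_GC of 1.32 ± 0.18 and 2.62 ± 0.18 (limma, adjusted p = 7.6e-09 at V580_D10). Cox4i1 had 234, 306 and 161 FPKM in E12.5_GC and 246 to 282 at V580_D10, and was not called on any of the 4 days. Ndufa4l2 had 2.23, 6.58 and 0.979 FPKM in E12.5_GC, at most 0.481 at V580_D4 and V580_D6, 5.22, 3.62 and 3.26 at V580_D8 and 15.7, 13.7 and 16.01 at V580_D10. It was called lower at V580_D6 (-1.71 ± 0.32) and higher at V580_D10 (2.14 ± 0.32) than in E12.5_GC, and its rise from V580_D6 to V580_D8 was 2.15 ± 0.32.

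Cox7a1 peaked on an early day. It had 3.30, 5.02 and 3.15 FPKM in E12.5_GC, 15.3, 15.3 and 15.9 at V580_D4, 2.95, 1.77 and 2.58 at V580_D6, 2.29, 3.70 and 3.00 at V580_D8 and 3.53, 2.64 and 2.96 at V580_D10. It was called 1.80 ± 0.16 higher at V580_D4 than in E12.5_GC (adjusted p = 1.1e-07) and fell by 2.28 ± 0.16 on the log2 scale to V580_D6. Of 6 muscle markers, 4 were in the table, and they summed to 58.5 to 65.3 FPKM at V580_D4 and to at most 7.80 in the other groups. Cox5a was also highest at V580_D4, with 37.1, 37.1 and 37.3 FPKM against 23.8, 28.9 and 18.9 in E12.5_GC (0.64 ± 0.12) and 25.1, 26.5 and 26.6 at V580_D6. The levels of muscle markers moved with Cox7a1 between V580_D4 and V580_D6, and their part in its change was not tested.

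Ndufv3, Ndufa6 and Cox6c differed from E12.5_GC as well. Ndufv3, a small accessory subunit near the NADH site with a short and a long form, had 21.2, 29.6 and 19.6 FPKM in E12.5_GC, 11.3, 11.3 and 11.0 at V580_D4, 12.1, 11.8 and 11.8 at V580_D6, 18.9, 17.9 and 17.5 at V580_D8 and 23.1, 20.6 and 25.2 at V580_D10. It was called lower at V580_D4 (-0.98 ± 0.11), V580_D6 (-0.90 ± 0.11) and V580_D8 (-0.34 ± 0.11), without overlap. Ndufa6 had 32.9, 40.0 and 24.4 FPKM in E12.5_GC, 19.9 to 20.5 at V580_D6, 38.4, 35.1 and 36.3 at V580_D8 and 66.0, 60.1 and 69.4 at V580_D10, a log2 fold change of 1.01 ± 0.13 over E12.5_GC. Cox6c had 42.0, 54.3 and 38.9 FPKM in E12.5_GC and 25.7 to 30.8 in all V580 libraries, and it was called lower on all 4 days, by -0.56 to -0.69. Ndufs1, by contrast, stayed between 9.32 and 11.4 FPKM in all 15 libraries, and Sdha between 58.3 and 72.3.

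Cox6b2 had 32.8, 42.1 and 34.9 FPKM in E12.5_GC, was called lower at V580_D4 (-0.36 ± 0.09), V580_D6 (-0.53 ± 0.09) and V580_D8 (-0.59 ± 0.09), and rose from V580_D8 to V580_D10 (0.69 ± 0.09), where it had 38.3, 38.4 and 40.3 FPKM. Uqcrfs1, the subunit with the large change at E16.5, had 76.9, 88.5 and 63.2 FPKM in E12.5_GC and 68.5 to 78.9 in the V580 libraries, with estimates between -0.09 and 0.00 against E12.5_GC and no call. Among the other lists, glycolysis rose from V580_D6 to V580_D8 in 15 of 20 genes with 0 lower, against 20.3% of all genes higher and 20.9% lower. The tricarboxylic acid cycle rose from V580_D8 to V580_D10 in 9 of 14 genes with 0 lower, against 19.5% and 15.0%, which is the same step at which 19 subunits were called higher.

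The treatments were tested in the same way over 10644 genes, of which 77 were subunits. At 24 h few subunits differed from the control. With Vc 1 subunit was called higher and 1 lower, against 7.57% of all genes higher and 5.98% lower, and with AM580 1 was higher and 0 lower, against 7.69% and 7.16%. The subunits called were Cox7a1 and Cox6b2. The count test on recovered fragments called 0 subunits in both, and limma at an unadjusted p below 0.05 had 1 higher and 10 lower with Vc and 1 and 2 with AM580. None of the 18 followed subunits was called in either. Without the first Vc library 0 were higher and 17 lower, and these 24 h libraries leaned unequally to length, with Spearman correlations of 0.0650 and -0.205 in Con and of -0.229 and 0.0838 with Vc. With V580, 1 was higher and 12 lower, against 29.0% of all genes called in either direction and 15.5% lower, at falls of -0.12 to -0.33. This count was 1 higher and 19 lower without the first Con library and 3 higher and 1 lower without the second, and without the first or second V580 library it was 1 and 6 or 1 and 2. Between V580 and AM580 at 24 h, 1 was higher and 2 lower, against 7.44% and 7.31%, and single libraries left out gave 0 or 1 in either direction. With the length term the counts at 24 h were 2 higher and 11 lower with Vc, against 9.58% and 9.53% of all genes. They were 1 and 2 with AM580, against 8.82% and 9.77%. With V580 they were 6 and 15, against 34.1% in either direction and 18.4% lower. For V580 against AM580 they were 3 and 8, against 10.0% and 9.83%.

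At 48 h part of the subunits were called lower with AM580 and V580, by small steps and in shares near those of all genes. With Vc, 1 was called higher and 5 lower, against 6.37% and 6.07% of all genes, and 0 or 1 higher and 2 lower with any of the 4 libraries left out. The counts with Vc under the length term were 1 higher and 10 lower, against 8.74% and 9.33%. With AM580, 2 were higher and 30 lower, against 25.7% and 31.2%, and with V580, 1 was higher and 25 lower, against 25.9% and 31.2%. The shares of subunits called lower were thus near those of all genes, while few were higher. The medians were -0.13 and -0.11 on the log2 scale. Called lower with AM580 were 5 of 8 subunits of complex III, 7 of 13 of complex IV, 7 of 15 of complex V, 9 of 37 of complex I and 2 of 4 of complex II. With V580 the counts were 2 of 8, 6 of 13, 9 of 15, 7 of 37 and 1 of 4 in the same order. These comparisons share the Con libraries. Without the first AM580 library 2 were higher and 14 lower, and without the first V580 library the counts were also 2 and 14. No called fall against Con reached a 2-fold change.

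V580 and AM580 were compared directly at 48 h. Of 77 pairs compared, with p adjusted over all genes, 1 was called higher in V580 and 3 lower, against 8.51% and 10.7% of all genes. The 3 were Ndufa4l2 (-1.01 ± 0.15), Ndufv3 (-0.44 ± 0.09) and Cox6b2 (-0.41 ± 0.08), and Uqcrq was higher (0.19 ± 0.06). With the length term 6 were higher and 6 lower, against 13.2% and 12.2%. The members without a call are not shown to respond alike.

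Cox7a1 was the subunit that limma called higher with every treatment. It had 4.09 and 3.99 FPKM in Con at 24 h, 6.61 and 5.34 with Vc, 6.59 and 5.53 with AM580 and 8.56 and 9.03 with V580. At 48 h it had 3.85 and 3.20 FPKM in Con, 5.72 and 4.62 with Vc, 13.99 and 17.07 with AM580 and 16.73 and 12.69 with V580. All treated libraries lay above the Con libraries of their time. The log2 fold changes were 0.46 ± 0.13, 0.48 ± 0.13 and 0.96 ± 0.13 at 24 h and 0.45 ± 0.13, 1.87 ± 0.13 and 1.79 ± 0.13 at 48 h, in the order Vc, AM580 and V580. The count test on recovered fragments did not call Cox7a1 with Vc or with AM580 at 24 h. The 4 muscle markers in the table summed to 17.1 to 23.1 FPKM in Con, 29.4 to 30.4 with Vc, 13.3 to 14.8 with AM580 and 19.8 to 20.6 with V580 at 24 h, and at 48 h to 11.0 to 11.3, 14.2 to 14.7, 10.4 to 10.6 and 14.2 to 15.6, so that they lay below Con with AM580 and above it with V580 at 48 h. Their part was not tested.

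The common form did not follow. Cox7a2 had 110 and 125 FPKM in Con and 98.0 and 89.2 with V580 at 24 h, and 129 and 135 in Con, 107 and 113 with AM580 and 107 and 117 with V580 at 48 h. It was called lower with V580 at both times (-0.33 ± 0.06 and -0.24 ± 0.06) and with AM580 at 48 h (-0.26 ± 0.06). In FPKM it stayed far above Cox7a1.

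Cox6b2, Ndufv3 and Cox7b had the deepest called falls with V580 at 48 h, and at 24 h the deepest were those of Cox7a2, Cox6b2 and Ndufv3. Cox6b2 had 15.1 and 16.8 FPKM in Con at 24 h and 12.3 and 12.6 with V580, and 23.8 and 22.3 in Con and 12.2 and 13.7 with V580 at 48 h. Its log2 fold change was -0.33 ± 0.08 at 24 h and -0.79 ± 0.08 at 48 h (adjusted p = 9.5e-07). Ndufv3 had 17.2 and 16.3 FPKM in Con, 11.8 and 12.2 with Vc, 14.9 and 14.2 with AM580 and 10.7 and 10.2 with V580 at 48 h, and was called lower with Vc (-0.45 ± 0.09) and with V580 (-0.64 ± 0.09). Cox7b, an X-linked subunit, had 122 and 119 FPKM in Con, 102 and 106 with Vc, 91.9 and 98.7 with AM580 and 88.2 and 87.9 with V580 at 48 h, and was called lower with each of the 3 treatments. Ndufa4l2 rose with AM580 alone among the treatments at 48 h, with 4.33 and 3.47 FPKM against 0.87 and 1.13 in Con (1.29 ± 0.15), whereas it had 1.14 and 1.75 with V580, not called, and 0.55 and 0.26 with Vc (-0.51 ± 0.15).

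The control itself changed between 24 h and 48 h. In Con, 29 subunits were called higher and 12 lower at 48 h, against 32.4% and 33.6% of all genes, with a median of 0.08. The largest called rises were those of Atp5k (0.70 ± 0.15), Cox7c (0.57 ± 0.08) and Cox7b (0.54 ± 0.06), and the falls were led by Cox5a (-0.34 ± 0.05) and Ndufb8 (-0.34 ± 0.06). Complex V had 8 of 15 subunits higher and 0 lower, whereas complex I had 9 of 37 higher and 7 lower. Over the same time the 6 pluripotency markers summed to 979 to 1045 FPKM in Con at 24 h, 573 to 584 in Con at 48 h, and 279 to 295 with AM580 and 282 to 285 with V580 at 48 h. They moved with the falls of the subunits under AM580 and V580 and against the rises in Con, and their part was not tested.

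**Figure D5:**
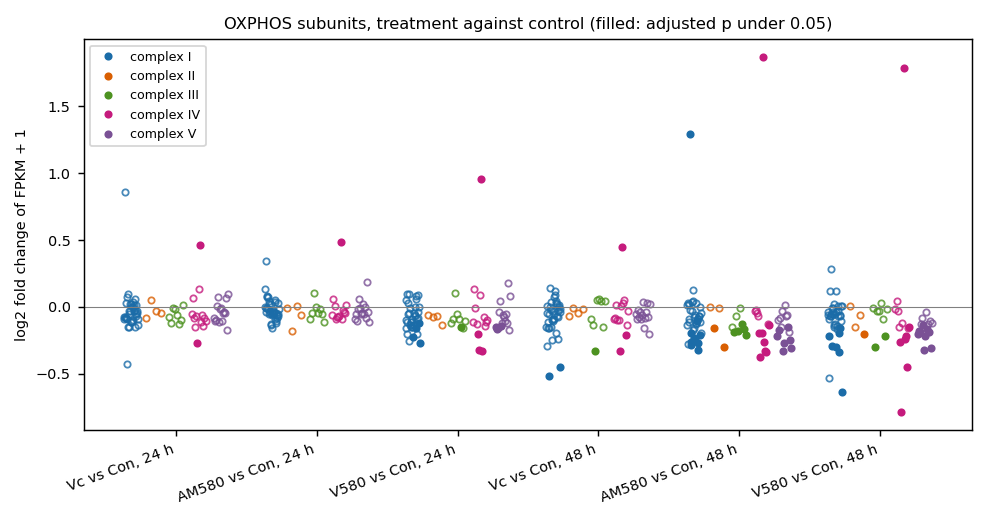
Each point is 1 subunit in a comparison of a treatment with the Con libraries of its time, as the log2 fold change of FPKM plus 1, coloured by complex and filled where the adjusted p was below 0.05. Cox7a1 is the highest filled point in all 6 comparisons and stands at 1.87 with AM580 at 48 h, above Ndufa4l2 at 1.29, while the medians at 48 h lay at -0.13 with AM580 and -0.11 with V580.

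Whether a treatment acted differently at 48 h and at 24 h was tested with interaction terms. For Vc 0 subunits differed in either direction, against 1.22% of all genes more positive and 1.68% more negative at 48 h by the same limma test, which had 2 more positive and 2 more negative at an unadjusted p below 0.05. For AM580, 2 subunits were more positive and 6 more negative, against 35.0% of all genes called in either direction and 18.4% more negative, led by Cox7a1 (1.38 ± 0.19) and Ndufa4l2 (1.22 ± 0.21). For V580, 2 were more positive and 4 more negative, against 15.8% and 18.1%, led by Cox7a1 (0.83 ± 0.19) and Cox6b2 (-0.46 ± 0.11).

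Genes of glycolysis were more often called lower than higher at 48 h, as the subunits were. With Vc 13 of 19 genes of that list were lower and 2 higher, with a median of -0.34, against 6.07% of all genes lower and 6.37% higher. With V580 12 were lower and 4 higher with a median of -0.50, against 31.2% and 25.9%, and with AM580 7 were lower and 5 higher with a median of -0.08, against 31.2% and 25.7%. The difference between the lists was not tested. With AM580 52 of 76 mitochondrial ribosomal protein genes were called lower and 0 higher at 48 h. For the assembly factors the counts at 48 h were 1 higher and 14 lower of 40 with AM580 and 3 higher and 10 lower with V580.

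For 15 subunits the transcript matched an annotated transcript of another gene at 97% identity or more over at least 150 bases, so that reads could be shared with a pseudogene. These were Atp5f1, Atp5g1, Atp5g2, Atp5h, Atp5l, Atp5o, Cox5b, Cox7a2l, Cox7c, Ndufa12, Ndufb4, Ndufs3, Ndufs5, Uqcr11 and Uqcrb, and their values are less certain. None of Uqcrfs1, Cox4i2, Ndufa4l2, Cox7a1, Cox6b2 and Ndufv3 was among them.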

How the data were processed

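Bulk RNA-seq of GSC stages (8 libraries), V580 days with E12.5_GC (15) and treatments (16) was analysed. The authors deposited gene counts for the stages (HISAT2 and featureCounts on mm10, from poly(A) libraries, by the study's methods) and FPKM values for the other libraries, for which no tool is named in the study's text, while the submitters' processing notes list RSEM. A single-cell matrix and a table with 10 columns that matched no sample label were not used here.

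Counts were tested with edgeR 4.0.16 (TMM, filterByExpr, quasi-likelihood F test, 8 libraries in 1 model). FPKM was tested as log2(FPKM + 1) with limma 3.58.1 (trend), for genes of at least 1 FPKM in 3 libraries (days) or 2 libraries (treatments). R was 4.3.3. A call was a Benjamini-Hochberg adjusted p below 0.05 over all genes. Transcript lengths came from GENCODE vM21, matched to 98.4% of genes with counts, and the length term was a natural spline with 4 degrees of freedom in each library. Whole fragments (tolerance 0.02) were recovered from the FPKM steps for 99.452% of genes (13607), with 100.0% of their values whole, and a count test on them called 9298 genes at V580_D4 against E12.5_GC, where limma called 8238. That test, called the count test on recovered fragments, was chosen after values had been seen.

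Depth was 12694769 to 22259044 counts in the stages and 15881736 to 23462748 recovered fragments elsewhere. The scripts were tested on simulated data. Named genes were 18 subunits followed in every comparison, the isoform families and the 3 largest rises and falls called in each comparison. Ndufs4, Ndufv3, Ndufa6, Cox6c, Cox7b and Uqcrb are given in comparisons beyond that rule, chosen after their values were seen. The members and lists were chosen with earlier results of these data known. Alternatives were other normalizations, DESeq2 1.42.0, filters, pseudocounts, a fold threshold, length, GC and lane terms, a replicate block and leaving out each library.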

Additional observations from a re-analysis of the deposited data

Results flagged for a closer look

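The effect of a treatment differed between 48 h and 24 h for 14 pairs of a subunit and a treatment, by the interaction term in limma on log2(FPKM + 1). Values are the effect at 48 h minus the effect at 24 h, with an adjusted p over all genes from 6e-05 to 0.0497. For AM580 they were 1.38 for Cox7a1, 1.22 for Ndufa4l2, -0.30 for Cox6b2, -0.30 for Cox7a2l, -0.30 for Cox7b, -0.27 for Atp5g1, -0.24 for Sdhd and -0.22 for Atp5g2. For V580 they were 0.83 for Cox7a1, 0.26 for Ndufb8, -0.26 for Ndufs3, -0.31 for Cox7b, -0.36 for Ndufv3 and -0.46 for Cox6b2. Over all genes, 35.0% were called in either direction for AM580, and 15.8% were more positive and 18.1% more negative for V580. Subunits were thus called less often than all genes. Each group held 2 libraries, and the AM580 and V580 terms share the Con libraries.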

How the results depend on the processing

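Counts below are subunits called in either direction, with higher and lower in brackets where the balance turned, and the causes of the shifts were not tested. Shares of all genes are given above for the main test and the length term only. Counts under any other setting, here and above, are therefore not set against all genes. With the length term they were 37 for E13.5 against E12.5, 44 (4 and 40) for E16.5 against E12.5, 49 (29 and 20), 48 (29 and 19) and 48 for V580_D4, V580_D6 and V580_D10 against E12.5_GC, 21, 28 (6 and 22) and 30 for the steps to V580_D6, V580_D8 and V580_D10, 13, 3 (1 and 2), 21 and 11 at 24 h for Vc, AM580, V580 and V580 against AM580, and 11 and 12 at 48 h for Vc and for V580 against AM580. The GC term gave 25 (11 and 14) for E16.5 against E12.5. The lane term gave 25 (12 and 13) for that comparison, 22 for P6w against E12.5 and 45 (22 and 23) for P6w against E16.5. Of the lanes, 1 held 5 libraries of E12.5, E13.5 and E16.5 and the other 3 of E16.5 and P6w, so only the E16.5 libraries link them.

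Requiring at least 2-fold left 35, 30, 3, 3 and 4 in the stages (E13.5 against E12.5, E16.5 against E13.5, E16.5 against E12.5, P6w against E12.5 and against E16.5). It left 2, 1, 1 (1 higher and 0 lower) and 3 on the 4 days against E12.5_GC, and 1, 2 and 2 for the steps between days. At 24 h it left 0 in each comparison, and at 48 h 0 with Vc, 2 (2 and 0) with AM580, 1 (1 and 0) with V580, 1 for V580 against AM580 and 0 for Con at 48 h against 24 h. For Vc at 24 h 0 were called with no filter and with the count test on recovered fragments, and the latter also called 0 for AM580. For V580 against AM580 at 24 h no filter gave 1, the count test 1 and median-ratio scaling 6.

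Leaving out each library gave 70 to 72, 68 to 72, 6 to 29, 18 to 28 and 34 to 46 calls in the 5 comparisons of stages, in the same order. It gave 21 to 48, 25 to 60, 20 to 60 and 14 to 38 against E12.5_GC, and 7 to 10, 4 to 4 and 8 to 16 for the steps between days. At 24 h it gave 0 to 17 with Vc, 0 to 2 with AM580, 3 to 20 with V580 and 0 to 2 for V580 against AM580, at 48 h 2 to 3, 16 to 30, 16 to 21 and 3 to 6 in that order, and 32 to 38 for Con. In groups of 2 the remaining library was assumed to vary like the other groups. The balance turned for E16.5 against E12.5 at 26 calls (12 and 14) without the second E16.5 library, for P6w against E16.5 at 46 (22 and 24) without the first E16.5 and 36 (17 and 19) without the second P6w library, for V580_D4 at 34 (24 and 10) without the second E12.5_GC library, for AM580 at 24 h at 2 (0 and 2) without the first Con library, and for V580 at 24 h at 4 (3 and 1) without the second.

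The same replicate number did not pair libraries throughout an experiment. Of the comparisons, all 3 same-number pairs were over 0.1 for E12.5_GC and V580_D4 (0.115, 0.295 and 0.344), and the block left the counts at 10 higher and 21 lower. These groups came from gonads and from cultures of ESCs, so that a shared number does not make them pairs. Correlations of deviations were -0.04 to 0.07 over 12 pairs in the stages, with 0 over 0.1, -0.43 to 0.39 over 30 pairs in the days, with 9 over 0.1, and -0.42 to 0.21 over 56 pairs in the treatments, with 14 over 0.1. In the stages and treatments, with 2 libraries per group, both same-number pairs of any 2 groups hold the same value, so that each value is counted 2 times. With a replicate block the counts were 74, 73, 22, 40 and 46 in the stages, 31, 34, 29 and 23 against E12.5_GC, 10, 4 and 17 between days, and 2, 1, 13, 2, 6, 28, 25, 4 and 40 in the treatments, all within 1.5 times of those without it. Other normalizations, DESeq2, pseudocounts and filters kept the direction and stayed within 1.5 times otherwise, in 168 of 253 alternatives over all settings.

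Single subunits turned sign mainly with the length term. These were Cox7c (-0.10) and Uqcrfs1 (-0.077) for E13.5 against E12.5, Cox6b1 (0.054), Cox7a2 (0.039) and Cox8a (0.064) for P6w against E16.5, Atp5k (0.23) and Cox8a (0.23) at V580_D4, and Atp5b (0.075) for Con at 48 h. At V580_D6 they were Atp5g2 (0.42), Atp5k (0.46), Cox6a1 (0.033), Cox6b1 (0.33), Cox7a1 (0.11), Cox7c (0.45), Cox8a (0.39), Ndufa1 (0.31), Ndufb9 (0.28) and Uqcrfs1 (0.12). At V580_D8 they were Atp5k (0.12), Cox5a (0.17), Cox6b1 (0.18), Cox7c (0.29), Cox8a (0.28) and Ndufb9 (0.25), at V580_D10 Ndufa1 (0.21), and from V580_D4 to V580_D6 Atp5k (0.23) and Cox8a (0.16). In the FPKM data the length term was fitted on few genes as short as the subunits. With the lane term Ndufs1 turned to 0.54 for P6w against E12.5. Among named subunits, 2556 of the values under an alternative kept their side of the threshold, 344 lost a call, 142 gained one and 28 turned sign.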
